A study of Homo sapiens with 9 samples.

Results

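The aryl hydrocarbon receptor (AHR) pathway was followed through 6 genes chosen by name in the triple-negative human breast cancer line MDA-MB-231: CYP1A1, CYP1B1, AHR, ARNT, AHRR and TIPARP. All 6 were among the 27548 rows of the deposited expression table, each on 1 row. CYP1A1 was chosen because it was low after the siRNA against TLX in these same libraries, so its values are given as a description with no test. The other 5 were added as genes of the same pathway. TLX is an orphan nuclear receptor encoded by NR2E1. Libraries S7 to S9 (TLX+siTLX) came from cells that overexpress TLX and received an siRNA targeting it. S4 to S6 (TLX+siCTL) came from TLX-overexpressing cells with a negative control siRNA, and S1 to S3 (CTL+siCTL) from control cells with that siRNA, so each group had 3 of the 9 libraries. Every group was transfected for 48 h. The S numbers stand in the column names and in no label. How TLX was overexpressed, from how many clones, and which siRNA sequences were used is not stated in the labels. Titles of control samples include the term PC3 with no explanation. Any other difference between the TLX-overexpressing and control cells cannot be told apart from TLX, and in bulk RNA fewer expressing cells cannot be told apart from less RNA per cell. Control cells with the siRNA against TLX are not among the groups, so its other effects cannot be told apart from loss of TLX. No label says whether the libraries of a group came from separate cultures, so p-values measure only the spread between these libraries, which may be technical.

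AHR is a transcription factor of the bHLH-PAS family that binds planar aromatic compounds. These include dioxins, polycyclic hydrocarbons and tryptophan derivatives such as kynurenine. Without a ligand it is held in the cytoplasm by HSP90 chaperones, and with one it enters the nucleus, pairs with ARNT and binds xenobiotic response elements, whose core is GCGTG. CYP1A1 and CYP1B1 are its best-known targets and encode haem enzymes that oxidise aromatic hydrocarbons and oestrogens. AHRR and TIPARP are also induced by AHR and limit it, AHRR by competing for ARNT and TIPARP by ADP-ribosylating AHR.

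The promoter windows of CYP1A1, picked for its low value after the siRNA, and of TIPARP, the feedback target that passed the test there, are shown first. Each is the 250 bases before a start in the RefSeq table (GRCh38.p14), printed 5′ to 3′ along the gene, with the core in capitals where it reads GCGTG or, on the other strand, CACGC. CYP1A1 lies at chr15:74725529-74725778 on the minus strand, and 82 of its bases are inside the gene as GENCODE 29 draws it. TIPARP, at the first of its 3 listed starts, lies at chr3:156674340-156674589 on the plus strand, with all 250 bases inside the GENCODE gene.
CYP1A1: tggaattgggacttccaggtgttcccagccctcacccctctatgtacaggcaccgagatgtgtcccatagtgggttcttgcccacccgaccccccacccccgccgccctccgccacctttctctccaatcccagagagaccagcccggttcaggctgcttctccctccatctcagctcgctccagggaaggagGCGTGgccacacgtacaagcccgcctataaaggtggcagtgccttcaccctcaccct
TIPARP: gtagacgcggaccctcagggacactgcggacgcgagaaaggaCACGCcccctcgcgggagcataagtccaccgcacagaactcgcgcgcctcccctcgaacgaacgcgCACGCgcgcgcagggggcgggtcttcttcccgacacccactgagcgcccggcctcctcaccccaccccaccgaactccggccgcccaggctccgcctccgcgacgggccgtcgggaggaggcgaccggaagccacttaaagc
The CYP1A1 window held 1 core, 57 to 53 bases before the start. The TIPARP window held 2 on the other strand, at 208 to 204 and 142 to 138 bases before the start, and the windows of its other 2 starts held 0. The 2 AHRR starts had 1 and 2 cores, and AHR and ARNT had 0. Of 35116 windows of this length in the table, 32.2% held at least 1 core and 10.2% at least 2. CYP1B1 is not named in this table. A match of these letters is a description and not a binding site, and sequence further from the starts was not searched.

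TLX+siTLX against TLX+siCTL is called the knockdown comparison here, TLX+siCTL against CTL+siCTL the overexpression comparison, and TLX+siTLX against CTL+siCTL the combined comparison. Each pair of them shares a group of libraries. CPM are the reads of a row scaled to a common library total. Rows averaging a log2 CPM of 0 or more over the 9 libraries, 13484 in all, are called detected.

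NR2E1, the targeted gene, had log2 CPM values of -2.61, -3.40 and -1.77 in TLX+siTLX, 0.28, -0.84 and 0.23 in TLX+siCTL, and -4.59, -4.28 and -4.50 in CTL+siCTL. TLX+siTLX lay between the other groups without overlap. The NR2E1 values rested on 5 to 23, 42 to 109 and 1 to 2 rebuilt reads a library in the same order. NR2E1 averaged under 0 log2 CPM in every group, so it is not among the detected rows. Library sizes rebuilt from the steps between low values were 73.8 to 91.7 M reads. S9 stood furthest from its group. The SD of its log2 difference from S7 was 0.250 and from S8 0.216, over detected rows that average 1 or more, against 0.173 to 0.202 for the other pairs of a group. S9 also held the most NR2E1 of TLX+siTLX. Of the receptors that define the tumour class, ESR1 averaged -2.31, -2.58 and -2.39 log2 CPM in TLX+siTLX, TLX+siCTL and CTL+siCTL. PGR had -2.88 to 1.14 log2 CPM over the libraries, with its highest value in S3 of CTL+siCTL, and ERBB2 had 6.17 to 6.48. The luminal markers KRT8, KRT18 and KRT19 were higher, at 7.68 to 8.93 log2 CPM, but the luminal marker FOXA1 was low, at -4.19 to -1.87. The prostate marker KLK3 averaged -4.61, -4.93 and -4.01 in TLX+siTLX, TLX+siCTL and CTL+siCTL. The summed CPM of 10 receptor and luminal breast markers was 1186 to 1262 in TLX+siTLX, 895 to 942.5 in TLX+siCTL and 1175.8 to 1220.9 in CTL+siCTL. For 9 prostate markers it was 42.4 to 44.7, 40.0 to 42.5 and 39.8 to 42.4 in the same order, and for 7 mesenchymal-type markers of this line 4776 to 5036.1, 3506.1 to 3558.9 and 3898.5 to 3998.7. In the knockdown comparison 4 of the 7 detected luminal markers rose and 0 fell, and 5 of the 7 mesenchymal-type markers rose and 0 fell, where 23.4% of detected rows rose and 21.0% fell. Counted at any level, 4 of the 10 receptor and luminal markers rose and 1 fell there. In the overexpression comparison 3 of the 7 rose and 4 fell in either list, where 28.2% of detected rows rose and 26.9% fell. The rise of ERBB2 there was lost without S1, S2, S3, S4 or S5, and that of EPCAM without S1, S2, S4 or S5. The combined comparison had 4 luminal markers rising and 1 falling, and 3 mesenchymal-type markers rising and 3 falling, where 31.6% of detected rows rose and 30.4% fell. Without S1 or without S2, 3 of the 7 luminal markers passed there. The part of these differences in the results below was not tested.

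CYP1A1 (ENSG00000140465, GRCh38 chromosome 15, 74719542 to 74725610, minus strand) was low in the libraries with the siRNA against TLX. Its log2 CPM was 1.12, 0.83 and 0.99 in TLX+siTLX, 3.85, 4.02 and 3.62 in TLX+siCTL, and 4.25, 4.15 and 4.03 in CTL+siCTL. The TLX+siTLX libraries lay far below all others, while TLX+siCTL lay just below CTL+siCTL without overlap. On the linear scale the means were 1.98 ± 0.198 CPM in TLX+siTLX, 14.3 ± 1.97 CPM in TLX+siCTL and 17.7 ± 1.32 CPM in CTL+siCTL (SD, n = 3), resting on 134 to 174, 975 to 1322 and 1204 to 1530 rebuilt reads a library. The log2 fold change was -2.85 ± 0.12 (moderated SE) in TLX+siTLX against TLX+siCTL, a level 7.23-fold lower. Only 1 of the 13484 detected rows had a lower log2 fold change, and this is how the gene came to be chosen. The value was -0.31 ± 0.12 in TLX+siCTL against CTL+siCTL and -3.16 ± 0.12 in TLX+siTLX against CTL+siCTL, and both share libraries with the comparison that picked the gene. On the log2(CPM + 1) scale the differences of TLX+siTLX from TLX+siCTL and from CTL+siCTL were -2.36 and -2.65. In the authors' deposited table its signed fold change was -7.28 in the knockdown, -1.24 in the overexpression and -9.04 in the combined comparison.

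**Figure D1:**
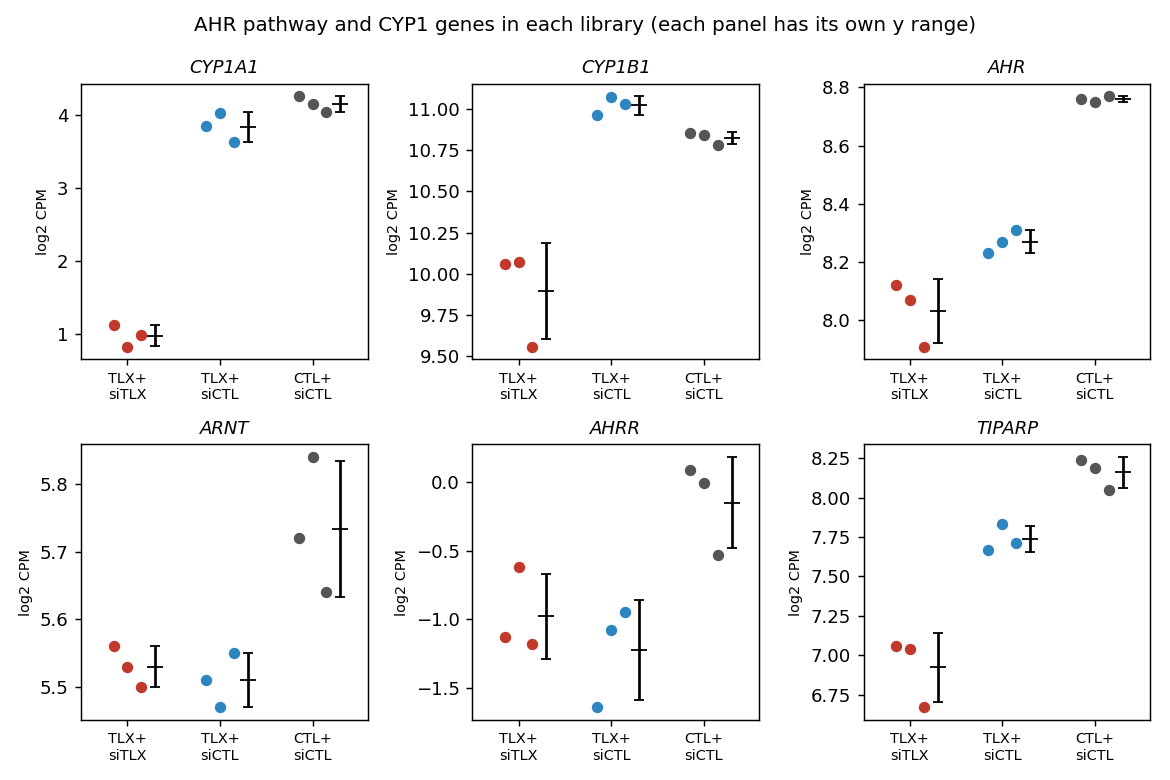
Log2 CPM (y axis, a range of its own in each panel) of the 6 genes in each group (x axis), 1 point per library, with the group mean and SD (n = 3) in black. CYP1A1 in TLX+siTLX sits between 0.83 and 1.12, below all other libraries. S9 is the lowest point of TLX+siTLX for CYP1B1, AHR, ARNT, AHRR and TIPARP.

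CYP1B1 (ENSG00000138061, chromosome 2, 38066973 to 38109902, minus strand), the CYP1 enzyme best known in breast and other extrahepatic tissue, fell with the siRNA by a smaller factor. Its log2 CPM was 10.06, 10.07 and 9.56 in TLX+siTLX, 10.96, 11.07 and 11.03 in TLX+siCTL, and 10.85, 10.84 and 10.78 in CTL+siCTL. No TLX+siTLX library reached either of the other groups, and the TLX+siCTL libraries were slightly above CTL+siCTL. The log2 fold change of TLX+siTLX against TLX+siCTL was -1.12 ± 0.12 (SE; limma adjusted p = 0.000279), a 2.18-fold lower level. Against CTL+siCTL it was -0.93 ± 0.12 (adjusted p = 0.000369). S9 was the lowest library, and without it these values were -0.95 (adjusted p = 9.15e-05) and -0.76 (adjusted p = 3.51e-05). The higher level in TLX+siCTL than in CTL+siCTL, 0.20 ± 0.12, did not pass the test (adjusted p = 0.312; 95% interval -0.09 to 0.48). It passed without S9 (0.20 ± 0.04, adjusted p = 0.00811) and with only the 6 libraries of these groups in the fit (adjusted p = 0.0197). Its adjusted p ranged up to 0.516 when single libraries were left out.

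CYP1B1 was far more abundant than CYP1A1 in every group. Per kilobase of the longest annotated transcript, 2685 bases for CYP1A1 and 5250 for CYP1B1, CYP1B1 had 184 CPM in TLX+siTLX, 395 in TLX+siCTL and 345 in CTL+siCTL. CYP1A1 had 0.737, 5.34 and 6.59 CPM per kilobase in the same groups. Within a library the log2 CPM of CYP1A1 minus that of CYP1B1 was -8.94, -9.25 and -8.56 in TLX+siTLX, -7.11, -7.04 and -7.41 in TLX+siCTL, and -6.60, -6.69 and -6.75 in CTL+siCTL. The gap was wider in each TLX+siTLX library than in any other, which is given as a description because CYP1A1 was chosen on these values. CYP1A2, the remaining CYP1 gene and chiefly a liver enzyme, averaged -2.51 log2 CPM in TLX+siTLX, -1.91 in TLX+siCTL and -1.90 in CTL+siCTL, and did not pass in any comparison (limma adjusted p = 0.237 in the knockdown comparison, and 0.0484 without S7).

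TIPARP (ENSG00000163659, chromosome 3, 156673235 to 156706770, plus strand) was lower at both steps. Its log2 CPM was 7.06, 7.04 and 6.67 in TLX+siTLX, 7.67, 7.83 and 7.71 in TLX+siCTL, and 8.24, 8.19 and 8.05 in CTL+siCTL. The groups formed 3 levels without overlap. TIPARP fell by 0.82 ± 0.11 on the log2 scale in TLX+siTLX against TLX+siCTL (limma adjusted p = 0.000641), and without S9 the value was -0.69 (adjusted p = 0.000932). In TLX+siTLX against CTL+siCTL it fell by 1.24 ± 0.11 (adjusted p = 2.2e-05). In TLX+siCTL against CTL+siCTL it fell by 0.42 ± 0.11 (adjusted p = 0.0143), a call that was lost without S1 (adjusted p = 0.0782), S2 (0.0674), S4 (0.0748) or S6 (0.0668). Within TLX+siTLX the low values of CYP1B1 and TIPARP were both those of S9, and their difference in log2 CPM was 3.00, 3.03 and 2.89 there, against 3.29, 3.23 and 3.32 in TLX+siCTL and 2.61, 2.65 and 2.73 in CTL+siCTL. An antisense gene, TIPARP-AS1, overlaps TIPARP in the annotation and CYP1B1-AS1 overlaps CYP1B1, and neither has a row in the table. RMDN2, which overlaps CYP1B1 on the opposite strand, does have a row and averaged 2.39 log2 CPM. AC019117.2, which overlaps AHR on the same strand, also has a row and averaged -1.16 log2 CPM. The kit was stranded, but the labels do not say whether the counting used the strand.

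The receptor AHR (ENSG00000106546, chromosome 7, 16916359 to 17346152, plus strand) was highest in control cells. Its log2 CPM was 8.12, 8.07 and 7.91 in TLX+siTLX, 8.23, 8.27 and 8.31 in TLX+siCTL, and 8.76, 8.75 and 8.77 in CTL+siCTL. The control libraries lay within 0.02 of each other and clear of all others, and TLX+siTLX lay just below TLX+siCTL. AHR fell by 0.49 ± 0.05 in TLX+siCTL against CTL+siCTL (limma adjusted p = 0.000169), a 1.40-fold lower level, and by 0.72 ± 0.05 in TLX+siTLX against CTL+siCTL (adjusted p = 1.15e-05). In TLX+siTLX against TLX+siCTL it fell by 0.24 ± 0.05 (adjusted p = 0.0137). That smaller call was lost without S5 (adjusted p = 0.0513), without S6 (0.0619) and in a fit of the 6 libraries compared (0.0706), and without S9 the value was -0.17 (adjusted p = 0.00886).

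ARNT (ENSG00000143437, chromosome 1, 150809705 to 150876768, minus strand), the partner of AHR and of the hypoxia-inducible factors, was almost level between the TLX-overexpressing groups. Its log2 CPM was 5.56, 5.53 and 5.50 in TLX+siTLX, 5.51, 5.47 and 5.55 in TLX+siCTL, and 5.72, 5.84 and 5.64 in CTL+siCTL. The first 2 groups overlapped and both lay below control cells. The difference of TLX+siTLX from TLX+siCTL was 0.02 ± 0.05 (limma adjusted p = 0.863; 95% interval -0.10 to 0.14). ARNT fell by 0.22 ± 0.05 in TLX+siCTL against CTL+siCTL (adjusted p = 0.011) and by 0.20 ± 0.05 in TLX+siTLX against CTL+siCTL (adjusted p = 0.0151). The last call was lost without S9 (-0.19, adjusted p = 0.0504).

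AHRR (ENSG00000063438, chromosome 5, 304176 to 438291, plus strand), the AHR repressor, was scarce. Its log2 CPM was -1.13, -0.62 and -1.18 in TLX+siTLX, -1.64, -1.08 and -0.95 in TLX+siCTL, and 0.09, -0.01 and -0.53 in CTL+siCTL, from 35 to 48, 27 to 39 and 49 to 84 rebuilt reads. TLX+siTLX and TLX+siCTL overlapped, and control libraries were higher than both. The difference of TLX+siTLX from TLX+siCTL, 0.25 ± 0.29, did not pass the test (limma adjusted p = 0.622; 95% interval -0.42 to 0.91). AHRR fell by 1.08 ± 0.29 in TLX+siCTL against CTL+siCTL (adjusted p = 0.0215), a call lost without S1 (adjusted p = 0.076), S2 (0.072) or S4 (0.0666). Against CTL+siCTL, TLX+siTLX was at -0.83 ± 0.29 (adjusted p = 0.0572), with an adjusted p of up to 0.161 when single libraries were left out and under the threshold in 5 other settings.

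The AHRR value depends on how reads were shared between rows. A separate row, PDCD6-AHRR, named for the read-through of the neighbouring gene PDCD6 into AHRR, was looked up after these values were seen. It held 2, 0 and 0 rebuilt reads in TLX+siTLX, 99, 0 and 222 in TLX+siCTL, and 629, 186 and 258 in CTL+siCTL, so in control cells it exceeded the AHRR row in every library. The sum of both rows was 38, 48 and 36 reads in TLX+siTLX, 126, 35 and 260 in TLX+siCTL, and 713, 260 and 307 in CTL+siCTL. S5 had none of the read-through reads that S4 and S6 had, and on the summed scale TLX+siCTL reached down into TLX+siTLX and up to CTL+siCTL. The PDCD6-AHRR row did not pass the test in the knockdown comparison (limma adjusted p = 0.12, and 0.00216 without S5) or in the overexpression comparison (adjusted p = 0.152), and it fell in the combined comparison (adjusted p = 0.0058). PDCD6 itself, with 5.65 to 6.07 log2 CPM in all libraries, rose by 0.33 ± 0.04 in TLX+siCTL against CTL+siCTL (adjusted p = 0.00035). The reads of these overlapping genes cannot be told apart here, and the level of AHRR is uncertain.

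**Figure D2:**
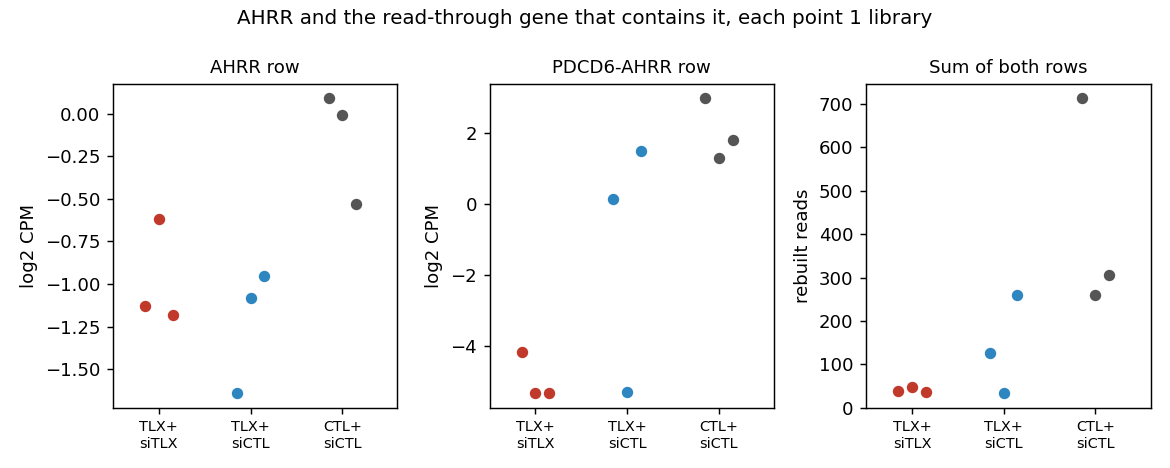
Log2 CPM of the AHRR row (left) and the PDCD6-AHRR row (centre), and rebuilt reads of both together (right), by group on the x axis with 1 point per library. The summed reads were 36 to 48 in TLX+siTLX, 35 to 260 in TLX+siCTL and 260 to 713 in CTL+siCTL.

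Of the 5 genes tested, 3 fell and 0 rose in the knockdown comparison (CYP1B1, TIPARP and AHR), where 10.9% of all rows fell and 12.7% rose, and 21.0% of detected rows fell and 23.4% rose. Without S5 or without S6 AHR did not pass. In the overexpression comparison 4 fell and 0 rose (AHR, ARNT, AHRR and TIPARP), where 15.1% of all rows fell and 15.0% rose, and 26.9% of detected rows fell and 28.2% rose. AHRR averaged under 0 log2 CPM in every group, so it is not among the detected rows, and its level is uncertain. Without S1, without S2 or without S4, 2 genes passed in the overexpression comparison, AHR and ARNT. In the combined comparison 4 fell and 0 rose (CYP1B1, AHR, ARNT and TIPARP), where 17.0% of all rows fell and 17.7% rose, and 30.4% of detected rows fell and 31.6% rose. The genes were picked with earlier results of these data known. Per kilobase of the longest transcript, AHR had 37.7 CPM in TLX+siTLX, 44.4 in TLX+siCTL and 62.2 in CTL+siCTL. TIPARP had 29.2, 51.1 and 68.5 CPM per kilobase in these groups, ARNT 9.45, 9.32 and 10.9, and AHRR 0.0912, 0.0771 and 0.162. By these means CYP1B1 was the most abundant of the 6 genes in every group and AHRR the least.

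**Figure D3:**
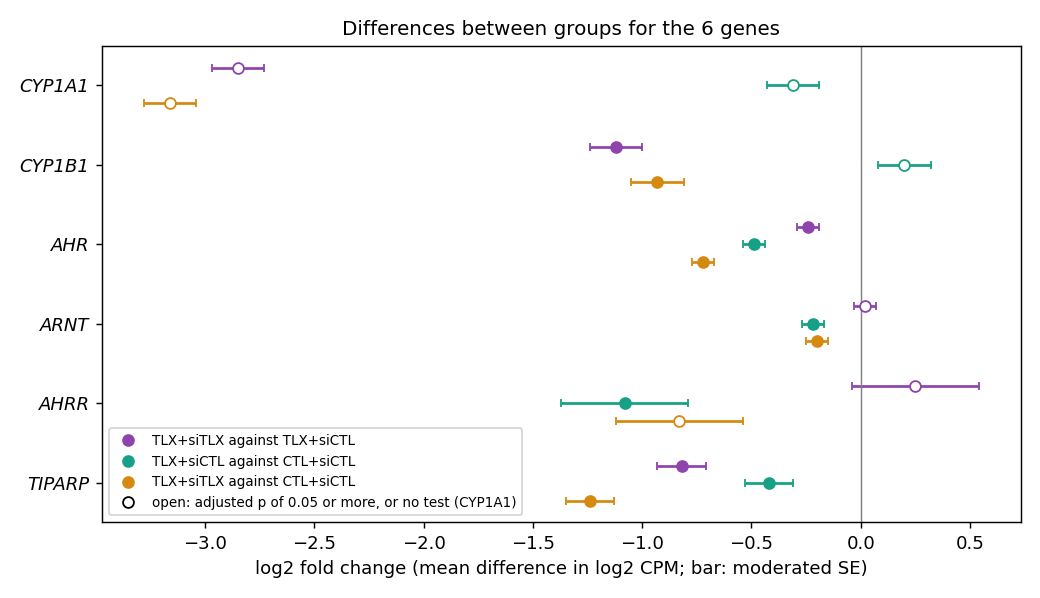
Log2 fold change (x axis, difference in mean log2 CPM, with the moderated SE as bar) of each gene (y axis) in the 3 comparisons. CYP1A1 lies at -2.85 and -3.16 in the comparisons with TLX+siTLX and at -0.31 between TLX+siCTL and CTL+siCTL; open symbols have an adjusted p of 0.05 or more or, for CYP1A1, no test.

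Other reported AHR targets were split between falls and rises after the siRNA. This list held 22 names, of which 20 had a row and 16 were detected. In the knockdown comparison 6 of the 16 fell and 4 rose, where 21.0% of detected rows fell and 23.4% rose. Their median log2 fold change was -0.04, against 0.00 over all detected rows. PTGS2, the inducible cyclooxygenase, fell by 2.05 ± 0.18 (limma adjusted p = 9.19e-05), with 5.09 log2 CPM in TLX+siTLX and 7.13 in TLX+siCTL. SERPINB2, a plasminogen activator inhibitor, fell by 1.34 ± 0.17 and EREG, an EGFR ligand, by 0.73 ± 0.14. SERPINB2 counts as detected through the TLX groups and was highest in TLX+siCTL (3.13 to 3.25 log2 CPM), so its fall is no support for the count. The EREG call was lost in a fit of the 6 libraries compared (adjusted p = 0.0556). NQO1, a quinone reductase shared with the NRF2 pathway, fell by 0.48 ± 0.04 and NFE2L2, which encodes NRF2, by 0.36 ± 0.06. CCNG2, a cyclin, fell by 0.34 ± 0.06.

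The rises in the same list included an enzyme that is classically induced with CYP1A1. ALDH3A1, an aldehyde dehydrogenase, rose by 1.75 ± 0.13 in the knockdown comparison (limma adjusted p = 2.96e-05), with 3.45 log2 CPM in TLX+siTLX and 1.70 in TLX+siCTL. NEDD9, a scaffold protein of focal adhesions, rose by 1.22 ± 0.06 (adjusted p = 5.74e-06), IL1B, an inflammatory cytokine, by 0.81 ± 0.14, and ABCG2, a drug efflux pump, by 0.57 ± 0.12. ALDH3A1 was thus higher and CYP1A1 lower in the same 3 libraries. CYP2S1, another P450 enzyme, averaged 1.25 log2 CPM in TLX+siTLX and 1.25 in TLX+siCTL. UGT1A6, a glucuronosyltransferase of the classical gene battery, averaged only -4.02 log2 CPM in TLX+siTLX and -4.49 in TLX+siCTL.

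Relative to control cells, 10 of the 16 targets fell and 2 rose in TLX+siCTL, where 26.9% of detected rows fell and 28.2% rose. Their median was -0.43, against 0.01 over all detected rows. PTGS2 fell by 2.76 ± 0.18, EREG by 2.66 ± 0.14 and ABCG2 by 1.42 ± 0.12. SERPINB2 rose by 5.29 ± 0.17, with 3.19 log2 CPM in TLX+siCTL and -2.09 in CTL+siCTL, and SLC7A5, a tryptophan and leucine transporter, by 0.49 ± 0.05. SERPINB2 had -2.39 to -1.77 log2 CPM in the CTL+siCTL libraries and counts as detected through the TLX groups, so its rise is no support for the count. In the combined comparison 10 fell and 4 rose, where 30.4% of detected rows fell and 31.6% rose. SERPINB2 was among these rises and is again no support for the count. The median of the 16 targets was -0.58, against 0.00 over all detected rows. PTGS2 (-4.81 ± 0.18), EREG (-3.39 ± 0.14) and CYP2S1 (-0.96 ± 0.21) had the largest falls, and SERPINB2 (3.95 ± 0.17), NEDD9 (1.24 ± 0.06) and ALDH3A1 (1.03 ± 0.13) the largest rises.

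**Figure D4:**
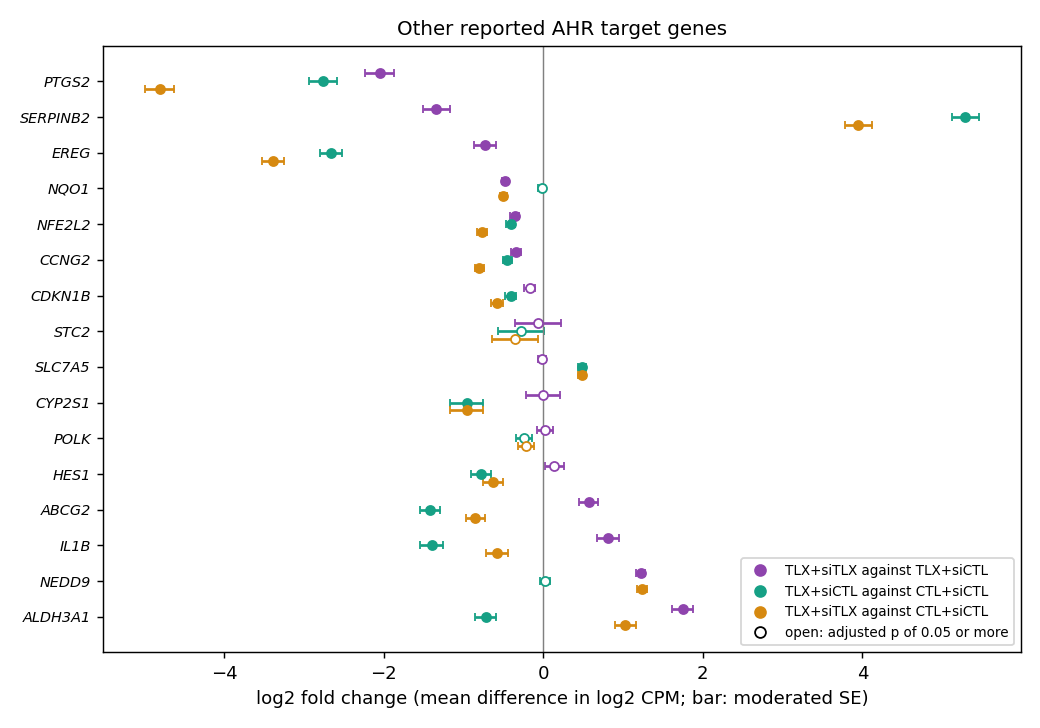
Log2 fold change (x axis, with the moderated SE as bar) of the 16 detected other reported AHR targets (y axis) in the 3 comparisons, filled where the adjusted p was under 0.05. ALDH3A1 and NEDD9 lie at 1.75 and 1.22 in the knockdown comparison, while PTGS2 lies at -2.05.

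All 16 listed chaperones and cofactors that hold or assist AHR were detected. In the knockdown comparison 2 fell, 2 rose and 12 did not pass, where 21.0% of detected rows fell and 23.4% rose. The median log2 fold change was -0.02, against 0.00 over all detected rows. The coactivator NCOA3 fell by 0.61 ± 0.06 (limma adjusted p = 0.000115) and the chromatin remodeller SMARCA4 rose by 0.39 ± 0.03 (adjusted p = 2.79e-05). The fall of MED1 (-0.26 ± 0.08, adjusted p = 0.0393) was lost without any single library other than S4, and the rise of the ubiquitin ligase STUB1 (0.15 ± 0.04) without S5 or S6 and with library medians centred (adjusted p = 0.0764), so that 2 of the 16 were called without S5 or without S6. The chaperone HSP90AA1 stood at -0.14 ± 0.07 (adjusted p = 0.191), and passed without S7 (adjusted p = 0.0172) and after quantile normalization (-0.37, adjusted p = 0.00566).

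The overexpression comparison had 7 of these 16 rising and 1 falling, where 26.9% of detected rows fell and 28.2% rose, with a median of 0.08, against 0.01 over those rows. NRIP1, a corepressor, fell by 1.34 ± 0.09 (limma adjusted p = 1.16e-05). CUL4B, a scaffold of the ubiquitin ligase through which AHR can act, rose by 0.69 ± 0.06 and HSP90AB1 by 0.29 ± 0.04. In the combined comparison 7 rose and 3 fell, where 30.4% of detected rows fell and 31.6% rose, with a median of 0.07, against 0.00 over those rows. NRIP1 (-1.40 ± 0.09), NCOA3 (-0.33 ± 0.06) and MED1 (-0.31 ± 0.08) were the falls, and CUL4B (0.75 ± 0.06), SMARCA4 (0.60 ± 0.03) and the HSP90 cochaperone CDC37 (0.29 ± 0.03) had the largest rises.

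The family of AHR and ARNT, the bHLH-PAS factors, were listed under 15 other names, older symbols included, of which 13 had a row and 9 were detected. All 9 passed in the overexpression comparison, where 6 fell and 3 rose, against 26.9% and 28.2% of detected rows, with a median of -0.74, against 0.01 over those rows. The clock gene ARNTL2 fell by 1.22 ± 0.08 (limma adjusted p = 7.29e-06), ARNTL by 0.85 ± 0.12 and HIF1A, the hypoxia factor that also pairs with ARNT, by 0.83 ± 0.04. SIM2 rose by 0.69 ± 0.08 and ARNT2, the ARNT paralog, by 0.50 ± 0.04, while the rise of CLOCK (0.40 ± 0.11) was lost without S1, S2, S4, S5 or S6 (adjusted p of up to 0.101). After the siRNA, in TLX+siTLX against TLX+siCTL, 2 rose and 1 fell, against 23.4% and 21.0% of detected rows, with a median of 0.19, against 0.00 over those rows. With rows averaging under 1 left out, 5 passed. HIF1A rose by 0.54 ± 0.04 (adjusted p = 3.23e-05) and SIM2 fell by 0.38 ± 0.08. The rise of ARNTL2 (0.32 ± 0.08) was lost without S5, S6, S7 or S8 (adjusted p of up to 0.0852). ARNT2 stood at 0.14 ± 0.04 (adjusted p = 0.0575), with an adjusted p of 0.0102 without S1. In the combined comparison 5 fell and 2 rose, where 30.4% of detected rows fell and 31.6% rose, with a median of -0.44, against 0.00 over those rows. These included EPAS1 (-0.65 ± 0.05), NPAS2 (-0.64 ± 0.07) and ARNT2 (0.64 ± 0.04).

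Genes that take up, make or break down tryptophan-derived AHR ligands were taken as a further list, and 8 of the 15 were detected. KYNU, the kynureninase that breaks kynurenine down, fell by 1.81 ± 0.08 in TLX+siCTL against CTL+siCTL (limma adjusted p = 1.34e-06), with 6.48 log2 CPM in TLX+siCTL and 8.29 in CTL+siCTL. It averaged 6.49 log2 CPM in TLX+siTLX, and did not pass in the knockdown comparison (adjusted p = 1). IDO1, which starts the pathway, fell by 1.67 ± 0.17 in TLX+siCTL against CTL+siCTL, and its rise after the siRNA (0.57 ± 0.17, adjusted p = 0.047) was lost without any single library other than S5 (adjusted p of up to 0.122). TDO2, the other starting enzyme, was near the floor at -4.52 log2 CPM in TLX+siTLX, -4.26 in TLX+siCTL and -4.01 in CTL+siCTL. SLC3A2, the partner chain of the transporter SLC7A5, fell by 0.78 ± 0.05 in TLX+siTLX against TLX+siCTL (adjusted p = 2.07e-05). Of the 8 genes, 1 rose and 1 fell in that comparison, where 23.4% of detected rows rose and 21.0% fell, and SLC3A2 alone passed without any single library other than S5 or S7. In the overexpression comparison 2 rose and 3 fell, against 28.2% and 26.9% of detected rows, and without S1 only 3 of the 8 passed. The median was -0.12, against 0.01 over those rows. The combined comparison had 2 rising and 4 falling, against 31.6% and 30.4%, with a median of -0.28, against 0.00.

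Of 29 other cytochrome P450 genes and electron donors 12 were detected. In the knockdown comparison 4 fell and 2 rose, where 21.0% of detected rows fell and 23.4% rose, with a median of -0.06, against 0.00 over those rows. POR, the reductase that feeds electrons to the CYP1 enzymes, fell by 0.33 ± 0.05 (limma adjusted p = 0.00159), with 6.29 log2 CPM in TLX+siTLX and 6.61 in TLX+siCTL. CYP27A1, a sterol hydroxylase, fell by 0.74 ± 0.09 and CYP3A5, a drug-metabolising enzyme, by 0.68 ± 0.11, and the retinoic acid hydroxylase CYP26B1 rose by 0.36 ± 0.07. CYB5R3, a cytochrome b5 reductase, rose by 0.33 ± 0.04. Against control cells, TLX+siCTL had 4 falls and 2 rises (median 0.04), where 26.9% of detected rows fell and 28.2% rose (median 0.01). Values there included CYP39A1 at -1.63 ± 0.15, CYP26B1 at -1.16 ± 0.07, CYP2U1 at 0.72 ± 0.06 and POR at 0.23 ± 0.05. In the combined comparison 6 fell and 3 rose (median -0.15), where 30.4% of detected rows fell and 31.6% rose (median 0.00).

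Conjugating and quinone-handling enzymes, several of which act on CYP1 products, made up a list of 21 names, of which 19 had a row and 12 were detected. In the knockdown comparison 2 rose, 0 fell and 10 did not pass, where 23.4% of detected rows rose and 21.0% fell. The median was 0.08, against 0.00 over those rows. The quinone reductase NQO1, which fell in this comparison, is in the list of other AHR targets and is not counted here. AKR1C2, an aldo-keto reductase, rose by 0.80 ± 0.10 (limma adjusted p = 0.000439). The rise of AKR1C1 (0.24 ± 0.07) was lost without S1, S2, S5, S6, S7 or S9 (adjusted p of up to 0.141) and with library medians centred (0.0572), and 1 gene of the list passed without S1, S2, S5 or S6. In the overexpression comparison 6 rose and 3 fell (median 0.20), where 28.2% of detected rows rose and 26.9% fell (median 0.01). Values there included GSTP1, a glutathione transferase, at 0.59 ± 0.05, AKR1C3 at 0.56 ± 0.06, AKR1C2 at -1.38 ± 0.10, AKR1C1 at -1.03 ± 0.07 and the epoxide hydrolase EPHX1 at -0.32 ± 0.04. The combined comparison had 6 rising and 3 falling (median 0.23), where 31.6% of detected rows rose and 30.4% fell (median 0.00). The AKR1C genes and the GSTM genes are close paralogs, so reads can be split between them and their values are uncertain.

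The rows most like CYP1A1 over the 9 libraries were taken from 11886 rows that average 1 or more in log2 CPM, 1 row for each symbol. GLRX, a glutaredoxin, had a Pearson r of 0.9976, followed by ELMOD2 (0.9953), TXNDC12 (0.9950), MMADHC (0.9940) and STT3B (0.9932). GLRX averaged 5.17 log2 CPM in TLX+siTLX, 6.47 in TLX+siCTL and 6.67 in CTL+siCTL. These rows had the same order of groups as CYP1A1 with smaller steps, with TLX+siTLX below TLX+siCTL by 0.35 to 1.30. For CYP1B1 the most alike were ARFGEF2 (0.9933), ZC3H12C (0.9932), SLC39A6 (0.9930), SGPP1 (0.9910) and CREBRF (0.9897), and S9 was again the lowest library of all 5. Among the 6 genes themselves r with CYP1A1 was 0.94 for TIPARP, 0.93 for CYP1B1, 0.79 for AHR, 0.45 for ARNT and 0.32 for AHRR. Such r values describe 9 libraries in 3 groups, rest mostly on the group means and carry no test.

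**Figure D5:**
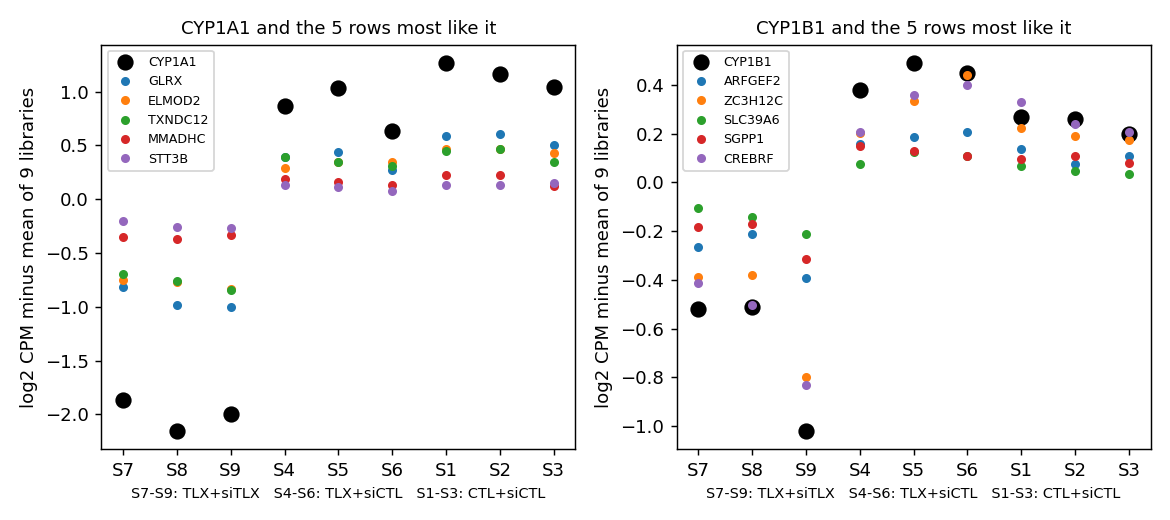
Log2 CPM minus the mean of the 9 libraries (y axis) for CYP1A1 (left) and CYP1B1 (right), in black, and for the 5 rows most like each, in colour, by library (x axis). For CYP1A1 and its 5 rows the TLX+siTLX libraries S7 to S9 lie below the other 6 libraries.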

How the data were processed

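The authors deposited log2 CPM values for 27548 rows and 9 libraries. They also deposited p-values, false discovery rates and a signed fold change (minus the inverse ratio for a fall) per comparison, from a test the labels do not describe. The submitters' processing notes name kallisto 0.44.0, limma, edgeR and the build GRCh38 without their roles. Columns name a group and a running number. The lowest log2 CPM, -5.33 in all 9 libraries, was read as a prior count of 2, which understates changes of low rows. Library sizes were recovered from the steps between low values. The share of low values within 0.01 of a whole read was only 41.7% to 44.5%, so rebuilt reads are estimates.

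Differences were tested with limma 3.58.1 (R 4.3.3) on the deposited values, with the 9 libraries in 1 fit of 3 group means and the prior variance following row intensity. Tests were two-sided, p-values were adjusted over all rows by Benjamini-Hochberg, and the threshold was 0.05. Alternatives are given in the closing section. The 6 genes and the 9 lists were chosen with earlier results of these data known. List genes are counted at a mean log2 CPM over all libraries of at least 0. Up to 3 rises and 3 falls per list and comparison were open to naming, and genes outside this rule were chosen after their values were seen. Coordinates are those of GENCODE 29, matched by Ensembl identifier, and promoter windows those of RefSeq, with 5 of the 6 genes found.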

Additional observations from a re-analysis of the deposited data

How the results depend on the processing

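The results on the 6 genes, the number of them called and the number of all rows called were recomputed on the log2(CPM + 1) scale, on rows averaging 1 or more (which drops AHRR), with library medians centred, with quantile normalization, without the intensity trend, with only the 2 groups compared and without each library. Of 357 such values 331 stayed within the limit for their kind, which was direction and side of the threshold for a tested gene, 1.5 times for a count and 1 SD for CYP1A1. No paired analysis was possible because the columns' running numbers are not the replicate numbers of the titles. In TLX+siTLX against TLX+siCTL, CYP1A1 was at -2.36 on the log2(CPM + 1) scale, AHR at -0.24 lost its call with only the 2 groups compared, and ARNT turned to -0.01 with medians centred. Without single libraries the values were -0.28 to -0.17 for AHR and -0.0003 to 0.04 for ARNT. In TLX+siCTL against CTL+siCTL, CYP1B1 passed at 0.20 with only the 2 groups compared. Without single libraries 2 to 5 of the 5 tested genes passed, with CYP1B1 at 0.17 to 0.23, AHRR at -1.26 to -0.87 and TIPARP at -0.48 to -0.38. In TLX+siTLX against CTL+siCTL, CYP1A1 was at -2.65 on the log2(CPM + 1) scale, ARNT at -0.20 lost its call with only the 2 groups compared, and AHRR passed at -0.34 on the log2(CPM + 1) scale and at -0.83 with no intensity trend. Without single libraries ARNT was at -0.25 to -0.15 and AHRR at -1.02 to -0.71. The log2(CPM + 1) scale shrinks differences of low rows by its construction, and the cause of the other changes was not tested. Of 2300 values on list and neighbouring genes, 2174 were unaltered in call, 89 lost a call, 9 gained one, 28 counts moved by over 1.5 times and 0 reversed.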
